A study of Caenorhabditis elegans with 44 samples.

Results

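The vitellogenin genes *vit-1* to *vit-6* encode the yolk proteins of *C. elegans*, and their mRNAs and antisense small RNAs (sRNAs) were followed in first-stage (L1) larvae of several genotypes. The 6 genes were chosen by name and found by their WormBase identifiers in every deposited table. They are 6 of 22013 entries in the N2 mRNA table, 6 of 22014 in the *otIs356* mRNA table, 6 of 46926 in the N2 sRNA table and 6 of 46927 in the *otIs356* sRNA table. The choice did not use their levels, but it was made with earlier results of these data known.

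The study asked how *pals-22*, a repressor of the intracellular pathogen response, acts with Argonaute proteins and small RNA pathways. Whole L1 animals were sequenced after embryos released from gravid adults with hypochlorite had hatched overnight without food. The 44 libraries comprise polyA-selected mRNA and sRNA treated with 5′ polyphosphatase, in the N2 strain or in animals with the integrated array *otIs356*, a repetitive pan-neuronal TagRFP reporter driven by a *rab-3* promoter.

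In N2, mRNA was sequenced from 2 *rrf-3(pk1426); pals-22(pig26)* libraries (the N2 double mutant), 3 *pals-22(pig26)* libraries, 3 *rrf-3(pk1426)* libraries and 2 wild-type libraries. N2 sRNA came from 3 *pals-22(pig26)* and 3 wild-type libraries. In the *otIs356* background, mRNA and sRNA were each sequenced from 3 *vsra-1(tm1637); pals-22(pig26)* libraries (the *otIs356* double mutant), 3 *pals-22(pig26)* libraries, 4 *vsra-1(tm1637)* libraries and 4 libraries with no mutation beside the array, called *otIs356* wild type here. *rrf-3* encodes an RNA-dependent RNA polymerase of the endogenous siRNA pathway, *vsra-1* encodes an Argonaute, and *pig26* is a deletion made by genome editing. The labels do not say that replicates came from separate cultures, so the p values below measure the spread between these libraries, which may be technical.

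Vitellogenins are large lipid-binding proteins that the intestine of the adult hermaphrodite makes and secretes into the body cavity. Oocytes take them up through the receptor RME-2, and the embryo and newly hatched larva live on the yolk they carry. *vit-1* and *vit-2* encode one class of the larger yolk protein and *vit-3*, *vit-4* and *vit-5* the other, while the *vit-6* product is cleaved into a pair of smaller yolk proteins. Transcription of the genes begins around the last larval moult, so an L1 library is not a place where they are usually studied.

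*vit-1* to *vit-5* lie on chromosome X and *vit-6* on chromosome IV (build WBcel235). *vit-1* (WBGene00006925, chrX:7727889-7733168, plus strand) has 5 exons, and so does *vit-2* (WBGene00006926, chrX:5101042-5106169, plus strand). *vit-3* (WBGene00006927, chrX:3567355-3572549) and *vit-4* (WBGene00006928, chrX:3558769-3563965) have 6 exons each and are neighbours on the minus strand. *vit-5* (WBGene00006929, chrX:3403471-3408603, plus strand) has 6 exons and *vit-6* (WBGene00006930, chrIV:8261157-8266459, plus strand) has 5 exons and 2 annotated transcripts. Annotated genes on the opposite strand overlap *vit-2*, *vit-3* and *vit-4*, and that of *vit-2*, C42D8.9, held at most 1.43 CPM in any mRNA library. The mRNA libraries were made with a directional kit, but whether strand was used in counting is not given in the sources used here, so overlapping reads of *vit-2* and C42D8.9 may not be separated.

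The 2 large classes differ in how well short reads can tell their members apart. Over coding sequences, *vit-3* and *vit-4* were 99.0% identical, *vit-3* and *vit-5* 97.7% and *vit-4* and *vit-5* 97.8%. *vit-1* and *vit-2* were 93.8% identical, and *vit-6* was 53.2% to 53.9% identical to the others. Of all 31-base words of a transcript, the share also found in another *vit* transcript was 82.4% for *vit-3*, 85.4% for *vit-4* and 62.8% for *vit-5*, against 24.2% for *vit-1*, 25.0% for *vit-2* and 0% for *vit-6*. Values of *vit-3*, *vit-4* and *vit-5* are therefore uncertain one by one, since the authors' counting had to divide shared reads among them, and those of *vit-1* and *vit-2* are so to a smaller extent. Of 1584 windows of 60 coding bases that start at a codon, the one with the most differences among *vit-3*, *vit-4* and *vit-5* is printed to show what separates them. It holds coding bases 757 to 816 of each, with capitals at the 8 positions that are not the same in all of them (build WBcel235).
*vit-3*, chrX:3571725-3571784, minus strand: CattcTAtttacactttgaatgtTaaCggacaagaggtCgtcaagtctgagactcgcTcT
*vit-4*, chrX:3563150-3563209, minus strand: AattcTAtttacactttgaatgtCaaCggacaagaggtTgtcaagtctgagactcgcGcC
*vit-5*, chrX:3404237-3404296, plus strand: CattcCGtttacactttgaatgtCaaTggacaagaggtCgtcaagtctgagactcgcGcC
Most of the 60 bases are shared even there, and no other of the windows compared held more differences.

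The genes also share short promoter elements. Vitellogenin promoters are known for the elements VPE1 (TGTCAAT) and VPE2 (CTGATAA), the second of which holds the core that intestinal GATA factors bind. The 250 bases before the annotated gene start were searched for both on both strands. VPE1 was found before 6 of 6 genes and VPE2 before 5 of 6, with no match before *vit-3*. The same windows of 19973 protein-coding genes held VPE1 in 4.81% and VPE2 in 7.21%, and both in 0.396%. The elements are known from vitellogenin promoters, so matches there were given in advance and are a description, not a test of enrichment. A match is a run of letters and was not tested for binding. The windows of *vit-2*, *vit-3*, *vit-4* and *vit-6* are printed, read from the WBcel235 reference genome on the strand of the gene. In this order they are a window with 1 match of each element, the one without VPE2, the one sharing the longest run with it, and that of the gene on the other chromosome. The number, order and strand of the matches differ between the genes. Capitals mark VPE1, VPE2 and their reverse complements.
*vit-2*, chrX:5100792-5101041, plus strand: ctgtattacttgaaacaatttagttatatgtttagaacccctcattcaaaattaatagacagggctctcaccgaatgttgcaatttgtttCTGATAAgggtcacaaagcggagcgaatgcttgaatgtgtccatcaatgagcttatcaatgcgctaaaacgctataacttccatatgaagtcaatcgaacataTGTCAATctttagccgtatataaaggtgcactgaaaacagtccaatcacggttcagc
*vit-3*, chrX:3572550-3572799, minus strand: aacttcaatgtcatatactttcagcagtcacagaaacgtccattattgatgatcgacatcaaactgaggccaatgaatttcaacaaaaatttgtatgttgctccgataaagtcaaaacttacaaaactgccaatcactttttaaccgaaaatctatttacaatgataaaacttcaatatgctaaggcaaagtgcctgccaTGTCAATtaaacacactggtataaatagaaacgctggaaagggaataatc
*vit-4*, chrX:3563966-3564215, minus strand: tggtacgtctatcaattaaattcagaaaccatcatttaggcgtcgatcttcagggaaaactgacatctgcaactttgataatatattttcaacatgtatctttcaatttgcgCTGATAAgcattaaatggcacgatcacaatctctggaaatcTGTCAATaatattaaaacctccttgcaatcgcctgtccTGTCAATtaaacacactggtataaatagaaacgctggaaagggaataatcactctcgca
*vit-6*, chrIV:8260907-8261156, plus strand: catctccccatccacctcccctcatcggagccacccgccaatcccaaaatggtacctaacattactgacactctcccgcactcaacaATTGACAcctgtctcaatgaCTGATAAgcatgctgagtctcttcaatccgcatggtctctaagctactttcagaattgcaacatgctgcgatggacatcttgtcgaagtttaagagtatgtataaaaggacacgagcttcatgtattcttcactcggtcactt
In *vit-2*, VPE2 began 160 bases and VPE1 57 bases before the gene start, counted from the base next to it. In *vit-4*, VPE2 began at 138 and VPE1 at 97 and 59, and in *vit-6* VPE1 stood reversed at 163 and VPE2 at 143. The *vit-3* and *vit-4* windows shared an unbroken run of 50 bases that begins with the VPE1 nearest the gene, and the longest run common to any other pair of windows was 7 to 11 bases.

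The libraries differed in depth and in the mRNA of adult markers, which is given with the comparisons below. mRNA totals were 36498609 to 61806727 in N2 and 5479218 to 33903511 in *otIs356*, where replicate 1 of the double mutant was the smallest. sRNA totals were 11483077 to 43362769 in N2 and 7950015 to 21594026 in *otIs356*. *rrf-3* mRNA was 1.65 to 1.80 CPM in the N2 double mutant and 1.90 to 1.98 in *rrf-3*, against 5.45 to 6.29 in wild type. *pals-22* mRNA was higher in N2 *pals-22* libraries (45.4 to 51.5 CPM) than in N2 wild type (26.5 to 26.8), and likewise in *otIs356* (43.8 to 45.3 against 22.8 to 28.6), so it does not check a partial deletion. *vsra-1* mRNA was 9.31 to 11.7 CPM in *vsra-1* and 11.6 to 14.8 in *otIs356* wild type. Markers of L1 tissues were present throughout, with summed intestinal markers at 1835 to 6793 CPM in N2 and 1182 to 3671 in *otIs356*. CPM are counts relative to the library total after TMM scaling, from values that the authors had already scaled for gene length, so levels may be compared between genes. As the RNA is from whole animals, fewer cells or animals that make a transcript and less of it per cell cannot be told apart.

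All 6 vitellogenin mRNAs were detected in every mRNA library of this larval stage, at low and very uneven levels. The sum of the 6 was 1.29 to 55.3 CPM over the 10 N2 libraries (median 8.06) and 3.08 to 145 CPM over the 14 *otIs356* libraries (median 11.8). *vit-6* and *vit-2* were the most abundant and *vit-1* among the least. In both tables the highest library was a double mutant, replicate 2 in N2 and replicate 1 in *otIs356*, and the other replicates of that genotype lay below the median of their table. The tables were normalized separately, so levels in N2 and in *otIs356* are set side by side and not compared.

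*vit-2*, which encodes a yolk protein of the first class, had 1.26 and 19.3 CPM in the N2 double mutant and 7.84, 2.50 and 5.68 CPM in *pals-22*. It had 0.0581, 0.134 and 0.123 CPM in *rrf-3*, against 2.48 and 0.286 CPM in wild type. The double-mutant and wild-type libraries thus spread over most of the range of the table, the *pals-22* libraries lay above both wild-type libraries, and the *rrf-3* libraries lay below all others. Means were 10.3 ± 12.7 (SD, n = 2) in the double mutant, 5.34 ± 2.69 (n = 3) in *pals-22* and 0.105 ± 0.0408 (n = 3) in *rrf-3*, against 1.38 ± 1.55 (n = 2) in wild type.

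*vit-6*, the gene of the smaller yolk proteins and the one with no shared words, gave the clearest reading. It had 1.45 and 22.1 CPM in the N2 double mutant and 11.2, 5.09 and 6.13 CPM in *pals-22*. It had 0.280, 0.562 and 0.580 CPM in *rrf-3*, against 5.25 and 1.72 CPM in wild type. The *rrf-3* libraries were again the 3 lowest, and here 1 *pals-22* library lay just under the higher wild-type library. The lowest *rrf-3* value stood for about 87 reads and the highest double-mutant value for about 6588, so the span is not one of a few reads.

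*vit-3* varied least. It had 0.572 and 2.20 CPM in the N2 double mutant, 2.40, 1.07 and 0.963 CPM in *pals-22* and 0.659, 0.784 and 0.548 CPM in *rrf-3*, against 1.86 and 0.354 CPM in wild type. Its groups overlapped, and its highest library was 6.79-fold above its lowest, against 332-fold for *vit-2*. *vit-3* was 30.5% to 51.1% of the vitellogenin sum in *rrf-3* libraries, against 12.9% and 13.5% in wild type, and was the most abundant of the 6 in *rrf-3* replicates 1 and 2. *vit-6* was the most abundant in the other 8 N2 libraries.

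*vit-5* and *vit-4* are the other genes of the second class. *vit-5* had 0.592 and 5.92 CPM in the N2 double mutant, 3.33, 1.25 and 1.19 CPM in *pals-22* and 0.113, 0.254 and 0.186 CPM in *rrf-3*, against 1.74 and 0.282 CPM in wild type. *vit-4* had 0.347 and 3.41 CPM in the double mutant, 3.21, 1.38 and 0.850 CPM in *pals-22* and 0.0638, 0.239 and 0.179 CPM in *rrf-3*, against 1.79 and 0.0587 CPM in wild type. The *rrf-3* libraries were the 3 lowest for *vit-5*, while for *vit-4* wild type replicate 2 was the lowest library. There the *vit-4* value stood for about 15 reads, so single values this low are imprecise.

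*vit-1* was the lowest in most N2 libraries. It had 0.170 and 2.42 CPM in the N2 double mutant, 1.72, 0.443 and 0.263 CPM in *pals-22* and 0.115, 0.148 and 0.181 CPM in *rrf-3*, against 0.618 and 0.0276 CPM in wild type. Its genotypes overlapped in every comparison of the table. The members moved together from library to library, with Pearson's r of 0.831 to 0.974 between pairs of them on log2(CPM + 1) over the 10 N2 libraries, which share scaling and, for some pairs, sequence.

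**Figure D1:**
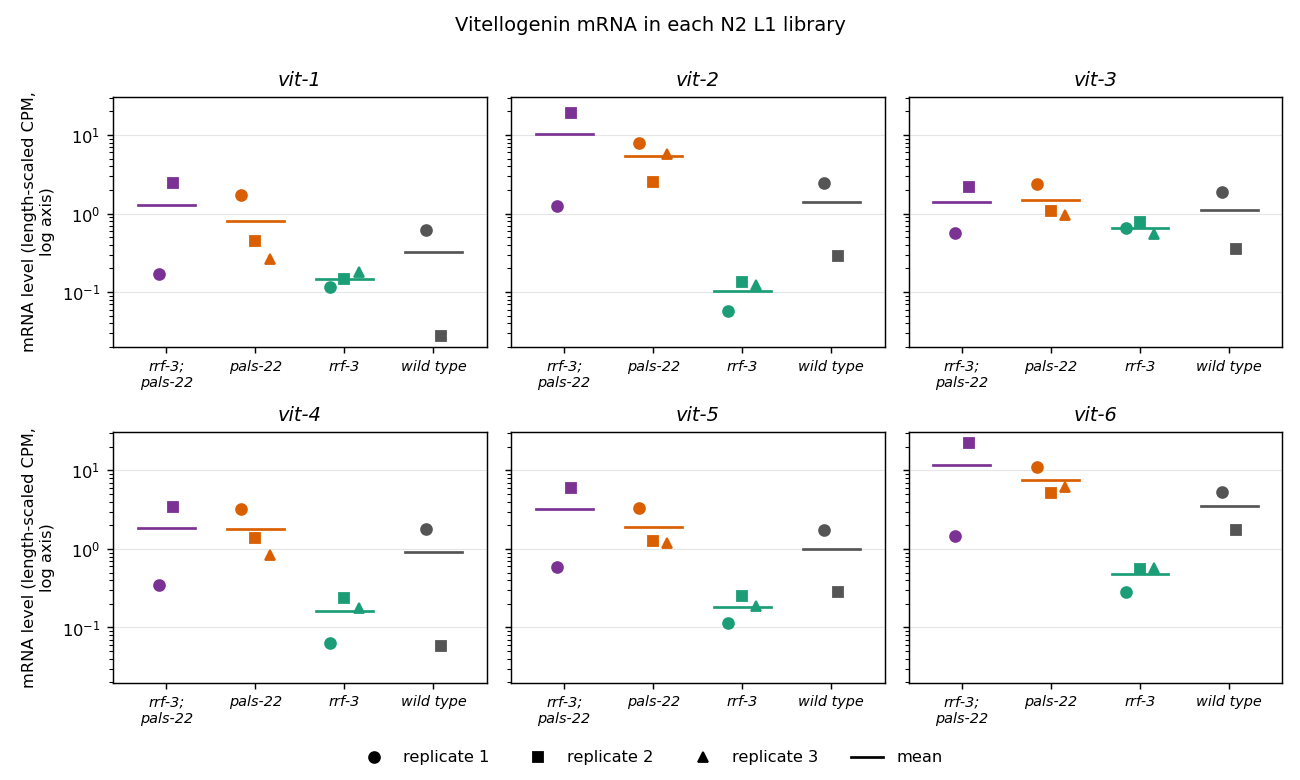
Vitellogenin mRNA in each N2 library (CPM, log axis), with 1 panel per gene, genotypes along the x axis, marker shape for the replicate and a bar at the group mean. The *rrf-3* libraries lie low, at 0.0581 to 0.134 CPM for *vit-2*, and the 2 double-mutant libraries stand far apart, at 1.26 and 19.3 CPM.

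Replicates of 1 genotype differed in vitellogenin mRNA by more than most genes did. The sum was 4.39 and 55.3 CPM in the N2 double mutant (12.6-fold apart), 29.7, 11.7 and 15.1 CPM in *pals-22* and 1.29, 2.12 and 1.80 CPM in *rrf-3*, against 13.7 and 2.73 CPM in wild type (5.03-fold apart). On log2(CPM + 0.1), the SD of *vit-2* to *vit-6* between replicates was 1.26 to 2.71 in the double mutant, 0.584 to 0.912 in *pals-22* and 0.224 to 0.544 in *rrf-3*, against 1.10 to 2.53 in wild type. The median SD of all genes with a mean of at least 1 CPM was 0.0781, 0.122 and 0.143 in these mutants, in the same order, and 0.0958 in wild type. The double-mutant values of *vit-6* stood for about 511 and 6588 reads.

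The first comparison was of N2 *pals-22* with wild type. All 6 vitellogenin mRNAs had higher means in *pals-22*, by log2 fold changes of 0.45 (*vit-3*) to 1.96 (*vit-2*), and none passed the test. *vit-2* alone did not overlap, with each *pals-22* library above each wild-type library, as in 28.6% of all genes tested. The log2 fold change was 1.36 ± 1.34 (SE) for *vit-1*, 1.96 ± 1.14 for *vit-2* (adjusted p = 0.195, edgeR quasi-likelihood, Benjamini-Hochberg), 0.97 for *vit-4*, 0.95 for *vit-5* and 1.11 for *vit-6*, with a median over the 6 of 1.04 against -0.02 over all genes tested. An adjusted p under 0.1, the threshold the study used, was reached by 0 of 6, against 51.1% of all genes, and an unadjusted p under 0.05 by 0 of 6, against 50.8%. DESeq2 called 1 of 6, *vit-2* (log2 fold change 1.99, adjusted p = 0.0960), against 24.7% of all genes higher by that tool. Without wild type replicate 1, 2 of 6 were called, *vit-2* at 4.16 (adjusted p = 0.0961) and *vit-4* at 4.67 (adjusted p = 0.0822). *vit-3* turned to -0.09 without *pals-22* replicate 1 and to -0.32 without wild type replicate 2.

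Sperm and adult cuticle transcripts were higher in the same *pals-22* libraries, and most oocyte markers were not called. Of 16 sperm markers, 15 were called higher and none lower. Of 6 markers of adult epidermis and cuticle, 5 were called higher, and of 18 oocyte and maternal germline markers 4, where 51.1% of all genes were called either way. Of 9 intestinal markers tested, 7 were called lower and 2 higher, with sums of 2923 to 3148 CPM in *pals-22*, against 6362 to 6793 CPM in wild type. Summed sperm markers were 382, 230 and 114 CPM in *pals-22*, against 31.6 and 9.77 CPM in wild type. Summed adult cuticle markers were 101, 44.6 and 35.0 CPM in *pals-22*, against 16.8 and 6.51 CPM in wild type, and *col-19*, an adult-specific collagen, had 45.2, 21.5 and 17.9 CPM against 5.18 and 2.01 CPM. Oocyte markers summed to 109, 61.1 and 46.6 CPM in *pals-22*, against 50.3 and 11.7 CPM in wild type, and the groups overlapped. Of the sperm, cuticle and oocyte lists, only 4 sperm genes were at 0 in any N2 library, *msp-63* in 6 of 10 and *msp-3*, *msp-10* and *gsp-3* in 1 each. Their part in the vitellogenin values was not tested.

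The second comparison was of N2 *rrf-3* with wild type. It shares its wild-type libraries with the *pals-22* comparison, so the values of both are given side by side and not related to each other. *vit-2*, *vit-5* and *vit-6* were lower in *rrf-3*, the other 3 had negative log2 fold changes that did not pass, and *vit-3* differed least. *vit-2* fell by 3.69 ± 1.37 (SE) on the log2 scale (adjusted p = 0.0429), *vit-6* by 2.84 ± 1.01 (adjusted p = 0.0372) and *vit-5* by 2.46 ± 1.07 (adjusted p = 0.0752). With library totals in place of TMM *vit-5* was not called (-1.99, adjusted p = 0.132). Log2 fold changes were -2.50 for *vit-4* (adjusted p = 0.125), -1.06 for *vit-1* and -0.71 for *vit-3*. That 3 of 6 were called lower stands beside 35.8% of all genes called lower and 67.7% called either way, so the count itself is near that of the table. The median log2 fold change was -2.48 over the 6, against -0.02 over all genes tested. The latter takes in changes of both directions, so it does not give how large those of other genes were. The same *vit-2*, *vit-5* and *vit-6* had each *rrf-3* library below each wild-type library, as in 39.8% of all genes. At an unadjusted p under 0.05 there were 3 of 6, against 65.1% of all genes. DESeq2 called 4, with *vit-4* added (-2.47, adjusted p = 0.0688), against 32.9% of all genes lower.

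These calls rested on single libraries. Wild type was 2 libraries that differed 5.03-fold in the vitellogenin sum, and the *rrf-3* sums (1.29, 2.12 and 1.80 CPM) were close to that of wild type replicate 2 (2.73 CPM). Without wild type replicate 1, 0 of 6 were called, *vit-2* was at -1.50 (adjusted p = 0.527), *vit-6* at -1.83 (adjusted p = 0.255) and *vit-5* at -0.61, and *vit-1*, *vit-3* and *vit-4* turned positive (2.57, 0.94 and 1.20). None were called without *rrf-3* replicate 1 either, with *vit-2* at -3.43 (adjusted p = 0.108), *vit-6* at -2.58 (adjusted p = 0.102) and *vit-5* at -2.23 (adjusted p = 0.170). Without *rrf-3* replicate 2 or replicate 3, 2 were called, *vit-2* and *vit-6*, and *vit-5* was not (adjusted p = 0.126 and 0.144). Without wild type replicate 2, 4 were called.

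Marker lists differed in direction between *rrf-3* and wild type, a comparison in which 35.8% of all genes were called lower and 67.7% either way. Adult cuticle markers summed to 3.01, 3.92 and 3.66 CPM in *rrf-3*, against 16.8 and 6.51 CPM in wild type, and 2 of 6 were called lower. Sperm markers summed to 5.49, 10.6 and 7.25 CPM, against 31.6 and 9.77 CPM, with 2 of 16 called higher and 2 lower. Oocyte markers, at 29.2, 29.4 and 28.0 CPM, lay between the wild-type sums of 50.3 and 11.7 CPM, with 5 of 18 called higher and 1 lower. Intestinal markers summed to 1835 to 3828 CPM in *rrf-3*, against 6362 to 6793 CPM in wild type, with 6 of 9 called lower and 2 higher. The part of these tissues in the vitellogenin values was not tested.

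The third comparison set the N2 double mutant against each single mutant, whose libraries also entered the comparisons with wild type. Against *rrf-3*, *vit-2*, *vit-5* and *vit-6* were higher in the double mutant, by log2 fold changes of 6.59 ± 1.32 (SE, adjusted p = 0.0228), 4.15 ± 1.06 (adjusted p = 0.0667) and 4.60 ± 1.02 (adjusted p = 0.0363). *vit-4* was at 3.51 (adjusted p = 0.187), *vit-1* at 3.10 (adjusted p = 0.244) and *vit-3* at 1.05 (adjusted p = 0.482), and the median was 3.83 against -0.01 over all genes. Here 3 of 6 were called higher, against 5.25% of all genes called higher and 7.45% either way. *vit-2*, *vit-4*, *vit-5* and *vit-6* had both double-mutant libraries above each *rrf-3* library, as in 18.4% of all genes, and DESeq2 called 4, *vit-4* included (adjusted p = 0.0475), against 6.59% of all genes higher. At an unadjusted p under 0.05 there were 5 of 6, against 18.8%. The lower double-mutant library, replicate 1, had *vit-2* at 1.26 CPM against 0.0581 to 0.134 CPM in *rrf-3*, and *vit-6* at 1.45 CPM against 0.280 to 0.580 CPM. Without double mutant replicate 2 none were called, with *vit-2* at 3.59 (adjusted p = 0.191), *vit-5* at 1.71 and *vit-6* at 1.61, and without *rrf-3* replicate 1 none were called either, with *vit-2* at 6.32 (adjusted p = 0.108). Without *rrf-3* replicate 2 only *vit-2* was called (6.76, adjusted p = 0.0843), without *rrf-3* replicate 3 the calls were 2, and without double mutant replicate 1 they were 3.

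Against *pals-22*, no vitellogenin mRNA was called in the N2 double mutant. Log2 fold changes were -0.10 (*vit-3*) to 0.94 (*vit-2*), with adjusted p of 0.521 to 0.984. The calls were 0 of 6, against 35.6% of all genes, 0 of 6 also at an unadjusted p under 0.05, against 39.8%, and 0 by DESeq2. The 2 double-mutant libraries lay on either side of the *pals-22* libraries, with sums of 4.39 and 55.3 CPM against 29.7, 11.7 and 15.1 CPM. Without double mutant replicate 2, all 6 log2 fold changes were negative, from -2.35 (*vit-4*) to -1.35 (*vit-3*), and *vit-6* was called lower (-2.33, adjusted p = 0.0810).

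Adult markers stood apart in the same double mutant library as the vitellogenins. Double mutant replicates 1 and 2 had adult cuticle sums of 3.11 and 54.6 CPM, sperm sums of 4.47 and 83.8 CPM and oocyte sums of 25.0 and 129 CPM. *rme-2*, the yolk receptor of oocytes, had 0.629 and 5.13 CPM, and *col-19* had 0.554 and 51.6 CPM. Against *pals-22*, 5 of 6 adult cuticle and 5 of 16 sperm markers were called lower, while 3 of 18 oocyte and 5 of 10 early embryo markers were called higher. Of all genes, 35.6% were called either way there. Against *rrf-3*, 1 of 6 adult cuticle markers was called higher, and 0 of 16 sperm and 0 of 18 oocyte markers were, where 5.25% of all genes were called higher. Their part in the double-mutant vitellogenin values was not tested.

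Whether the effect of *pals-22* differed between *rrf-3* mutant and wild-type animals was tested as an interaction in the same fit. *vit-2* (4.63 ± 1.70 SE, adjusted p = 0.0763) and *vit-6* (3.49 ± 1.34, adjusted p = 0.0868) passed, with a greater difference between double mutant and *rrf-3* than between *pals-22* and wild type. The other 4 did not, with 3.20 for *vit-5* (adjusted p = 0.127), 2.54 for *vit-4*, 1.74 for *vit-1* and 0.61 for *vit-3*. The 2 of 6 called stand beside 37.2% of all genes called and 21.5% called in this direction. At an unadjusted p under 0.05 there were 2 of 6, against 40.7%. DESeq2 called 3, with *vit-5* (3.15, adjusted p = 0.0742), against 18.0% of all genes in this direction. Without double mutant replicate 2, *vit-2* was at 1.61 (adjusted p = 0.417) and *vit-6* at 0.48 (adjusted p = 0.732). With wild type replicate 1 left out they were at 2.43 (adjusted p = 0.427) and 2.48 (adjusted p = 0.271). With library totals in place of TMM neither passed (4.28, adjusted p = 0.101, and 3.15, adjusted p = 0.121). No member was called in any of these fits, nor without *pals-22* replicate 2 or 3 or any of the *rrf-3* replicates.

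In the *otIs356* background the order of the genotypes was another one. *vit-2* had 41.6, 3.11 and 0.420 CPM in the double mutant and 1.77, 0.852 and 0.808 CPM in *pals-22*. It had 18.1, 13.3, 5.18 and 1.37 CPM in *vsra-1*, against 5.60, 2.69, 6.66 and 2.73 CPM in wild type. The *pals-22* libraries were below each wild-type library, the *vsra-1* libraries lay on both sides of wild type, and the double mutant held the highest and the lowest value of the table.

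*vit-6* had 41.3, 2.86 and 0.695 CPM in the *otIs356* double mutant and 1.75, 0.780 and 0.835 CPM in *pals-22*. It had 18.5, 14, 5.73 and 1.47 CPM in *vsra-1*, against 5.67, 3.90, 5.89 and 3.68 CPM in wild type. As for *vit-2*, the top of the order was double mutant replicate 1 and then *vsra-1* replicates 1 and 2, and all *pals-22* libraries lay below all wild-type libraries. Means were 14.9 ± 22.8 CPM (SD, n = 3) in the double mutant, 1.12 ± 0.545 (n = 3) in *pals-22* and 9.94 ± 7.74 (n = 4) in *vsra-1*, against 4.79 ± 1.15 (n = 4) in wild type.

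*vit-5* had 29.3, 2.22 and 0.445 CPM in the *otIs356* double mutant, 1.43, 1.00 and 0.824 CPM in *pals-22* and 13.1, 10.4, 3.70 and 0.966 CPM in *vsra-1*, against 4.23, 2.60, 4.98 and 2.48 CPM in wild type. *vit-4* had 17.6, 1.02 and 0.243 CPM in the double mutant, 0.701, 0.135 and 0.341 CPM in *pals-22* and 7.61, 4.85, 2.07 and 0.593 CPM in *vsra-1*, against 2.46, 1.33, 2.34 and 1.10 CPM in wild type. *vit-3* had 11.7, 1.38 and 0.658 CPM in the double mutant, 0.656, 0.519 and 0.537 CPM in *pals-22* and 5.75, 4.62, 2.06 and 0.627 CPM in *vsra-1*, against 1.95, 0.926, 1.82 and 1.25 CPM in wild type. In all these genes of the second class the 3 *pals-22* libraries were below the 4 wild-type libraries. *vit-1* had 3.76, 0.452 and 0.622 CPM in the double mutant, 0.459, 0.331 and 0.160 CPM in *pals-22* and 1.31, 1.62, 0.672 and 0.340 CPM in *vsra-1*, against 0.705, 0.336, 0.580 and 0.516 CPM in wild type. It alone overlapped between *pals-22* and wild type. Pairs of members correlated at r of 0.888 to 0.996 over the 14 libraries, and *vit-3*, *vit-4* and *vit-5* together were 40.3% to 48.6% of the sum in each library.

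**Figure D2:**
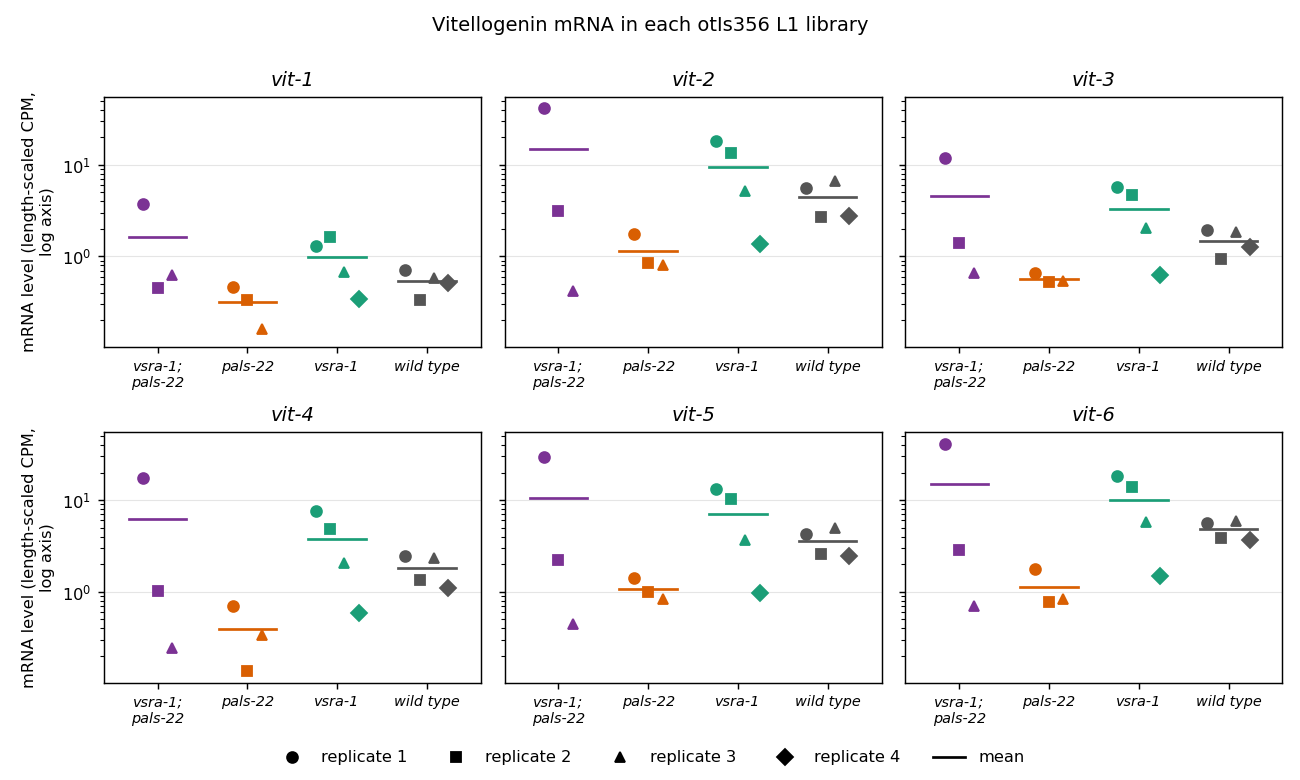
Vitellogenin mRNA in each *otIs356* library (CPM, log axis), with 1 panel per gene, genotypes along the x axis, marker shape for the replicate and a bar at the group mean. Double mutant replicate 1 is the highest library for all 6 genes, at 41.6 CPM for *vit-2*, and *pals-22* lies below wild type for *vit-2* to *vit-6*.

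The *otIs356* replicates also differed among themselves. The sum was 145, 11 and 3.08 CPM in the double mutant (47.1-fold apart), 6.77, 3.62 and 3.51 CPM in *pals-22* and 64.4, 48.8, 19.4 and 5.37 CPM in *vsra-1* (12-fold apart), against 20.6, 11.8, 22.3 and 11.8 CPM in wild type (1.89-fold apart). The SD of *vit-2* to *vit-6* on log2(CPM + 0.1) was 2.07 to 3.18 in the double mutant and 1.36 to 1.66 in *vsra-1*, against a median of 0.324 and 0.447 for all genes. In *pals-22* it was 0.156 (*vit-3*) to 0.883 (*vit-4*), against a median of 0.211. In wild type it was 0.346 to 0.667, against a median of 0.354. Double mutant replicate 1, with about 1502 *vit-2* reads, was also the smallest *otIs356* mRNA library.

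Against *otIs356* wild type, *pals-22* had lower vitellogenin means in all 6 genes, and none were called. Log2 fold changes were -2.11 ± 1.23 (SE) for *vit-4*, -2.06 ± 1.13 for *vit-6*, -1.91 ± 1.19 for *vit-2*, -1.69 for *vit-5*, -1.39 for *vit-3* and -0.70 for *vit-1*, with adjusted p of 0.246 to 0.566. *vit-2* to *vit-6* did not overlap between the groups, 5 of 6, against 14.7% of all genes with each *pals-22* library below each wild-type library. The calls were 0 of 6 with edgeR, against 10.9% of all genes, 0 at an unadjusted p under 0.05, against 27.1%, and 0 with DESeq2. When only the libraries of these 2 genotypes were fitted, so that the spread of the *vsra-1* and double-mutant libraries did not enter, 5 were called lower, *vit-6* at -2.08 (adjusted p = 0.0207), *vit-5* at -1.70 (adjusted p = 0.0370), *vit-2* at -1.94 (adjusted p = 0.0466), *vit-4* at -2.13 (adjusted p = 0.0619) and *vit-3* at -1.40 (adjusted p = 0.0715), against 12.6% of all genes lower in that fit. The direction is opposite to that of *pals-22* in N2, where it was not called, and the difference between the backgrounds was not tested since the tables were normalized separately. Adult cuticle markers summed to 1.85 to 3.32 CPM in *pals-22*, against 3.74 to 8.56 CPM in *otIs356* wild type. Sperm markers summed to 3.69 to 6.04 CPM against 1.85 to 4.41 CPM, and oocyte markers to 46.1 to 60.6 CPM against 35.5 to 65.7 CPM. Intestinal markers summed to 1241 to 1506 CPM against 1695 to 3671 CPM, with 3 of 9 called lower and 1 higher, and 4 of 6 body wall muscle markers were called lower. The part of these tissues in the values was not tested.

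*vsra-1* had somewhat higher vitellogenin means than *otIs356* wild type and no call. Log2 fold changes were 0.89 to 1.13 with adjusted p of 0.595 to 0.714. The calls were 0 of 6, against 0.00598% of all genes, which is 1 gene, 0 at an unadjusted p under 0.05, against 12.4%, and 0 with DESeq2. *vsra-1* replicates 1 and 2 (64.4 and 48.8 CPM in sum) were above all wild-type libraries and replicate 4 (5.37 CPM) below all of them.

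The *otIs356* double mutant against *pals-22* gave large log2 fold changes that rested on 1 library. They were 3.86 for *vit-4*, 3.67 for *vit-6*, 3.66 for *vit-2*, 3.22 for *vit-5*, 2.95 for *vit-3* and 2.25 for *vit-1*. An unadjusted p under 0.05 was reached by 6 of 6 (0.0109 to 0.0203), against 3.83% of all genes, while the adjusted p was 1 for each and the calls were 0 of 6, against 0.00598% of all genes, and 0 with DESeq2. *vit-3* alone had each double-mutant library above each *pals-22* library, as in 5.75% of all genes. Without double mutant replicate 1 the log2 fold changes were 0.26 to 0.84.

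The *otIs356* double mutant against *vsra-1* gave log2 fold changes of 0.43 to 0.68 and 0 of 6 calls, against 10.9% of all genes, with 0 at an unadjusted p under 0.05, against 22.9%, and 0 with DESeq2. Without double mutant replicate 1 all 6 turned negative, -0.85 for *vit-1*, -1.68 for *vit-3*, -2.42 for *vit-5*, -2.46 for *vit-2*, -2.49 for *vit-6* and -2.62 for *vit-4*. The interaction of *vsra-1* and *pals-22* was 1.36 to 2.79 with 0 of 6 called, against 0.00598% of all genes, 0 at an unadjusted p under 0.05, against 6.40%, and 0 with DESeq2. Without double mutant replicate 1 it was -0.73 to -0.15.

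**Figure D3:**
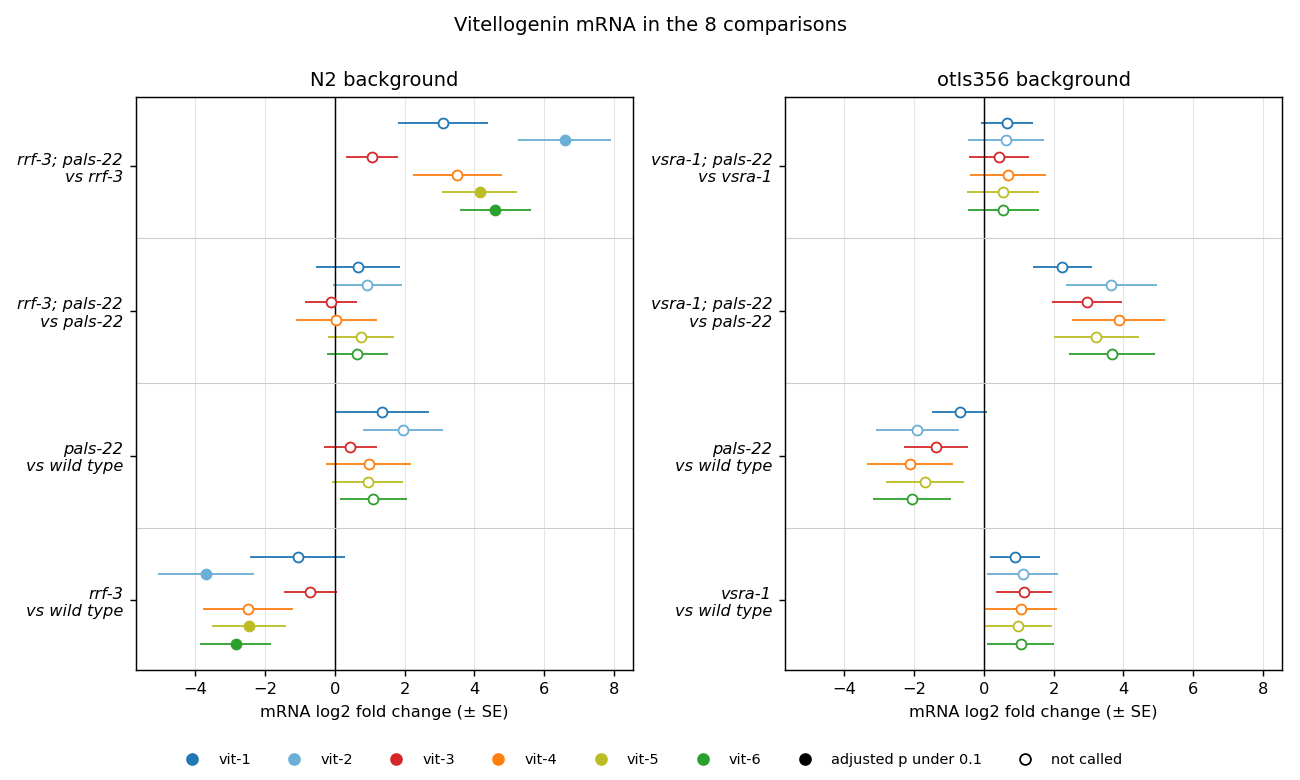
Log2 fold changes of the 6 vitellogenin mRNAs in each comparison, with bars of 1 SE and filled points where the adjusted p was under 0.1 (edgeR). The filled points are *vit-2*, *vit-5* and *vit-6* for the N2 double mutant against *rrf-3* (log2 fold changes of 4.15 to 6.59) and for *rrf-3* against wild type (-3.69 to -2.46).

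The sums of adult cuticle, oocyte and sperm markers were also highest in *otIs356* double mutant replicate 1, though single markers differed. The oocyte marker *oma-1* was highest in *vsra-1* replicate 4 (11.9 CPM), against 4.60 CPM in double mutant replicate 1. Only 4 of 18 oocyte markers had r over 0.8 with the vitellogenin sum. Double mutant replicate 1 had an adult cuticle sum of 19.9 CPM, an oocyte sum of 143 CPM and a sperm sum of 19.3 CPM, against 1.79 to 9.51, 29.4 to 81.6 and 1.75 to 6.04 CPM in the other 13 libraries. *col-19* had 11.2, 0.418 and 0.106 CPM in the double mutant, 0.289, 0.737 and 0.406 CPM in *pals-22* and 2.89, 3.53, 1.34 and 0.421 CPM in *vsra-1*, against 0.939, 1.08, 1.69 and 0.544 CPM in wild type, so that double mutant replicate 1 and *vsra-1* replicates 1 and 2 were the highest, as for *vit-2*. *rme-2* had 6.45, 0.784 and 0.895 CPM in the double mutant, 0.912, 1.01 and 1.26 CPM in *pals-22* and 2.75, 1.53, 1.27 and 0.905 CPM in *vsra-1*, against 1.27, 0.721, 1.44 and 1.58 CPM in wild type. The sperm gene *msp-3* was at 0 in 12 of 14 libraries. In the 4 *otIs356* comparisons 0 of 3 adult cuticle, 0 of 3 sperm and 0 of 18 oocyte markers tested were called, against 0.00598% to 10.9% of all genes. The part of these markers in the vitellogenin values was not tested.

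**Figure D4:**
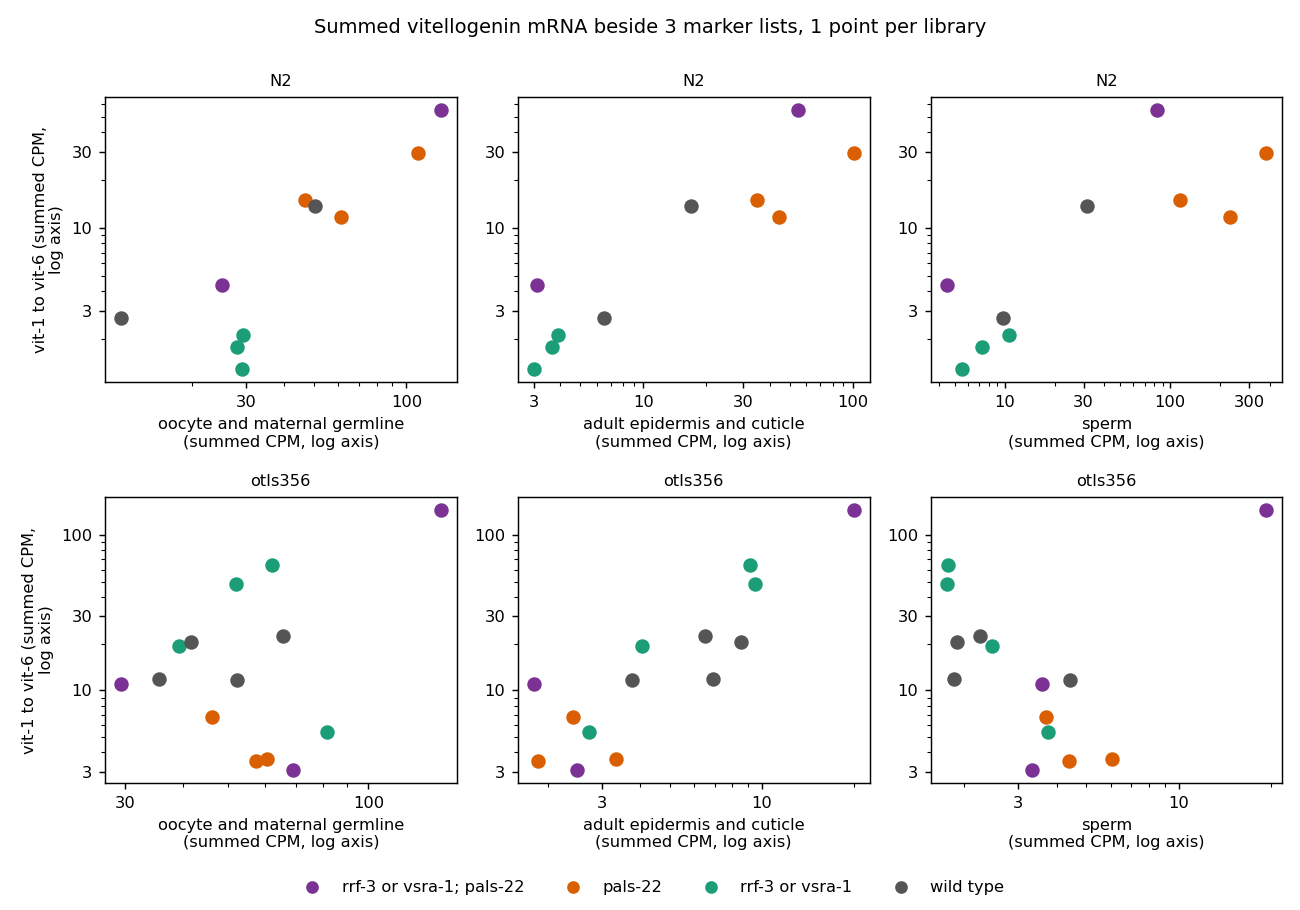
Summed vitellogenin mRNA (y axis, CPM) against the summed oocyte, adult cuticle and sperm markers (x axes, CPM) of each mRNA library, both on log axes and coloured by genotype. The double-mutant libraries with the most vitellogenin (55.3 CPM in N2, 145 CPM in *otIs356*) also have the highest oocyte sums, at 129 and 143 CPM. In N2 the highest adult cuticle and sperm sums are those of *pals-22* replicate 1, at 101 and 382 CPM, against 54.6 and 83.8 CPM in double mutant replicate 2.

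The genes whose mRNA most resembled the vitellogenin sum were named by Pearson's r on log2(CPM + 1), as a description over libraries that share their scaling. In N2 (10 libraries, 14723 genes) they were *mppb-1* (r = 0.989, 15.2 to 18.9 CPM), D1054.10 (0.979, 0.333 to 17.5 CPM), *ule-3* (0.969, 0.188 to 16.3 CPM), *ule-5* (0.969, 0.218 to 19.9 CPM) and Y69A2AR.50 (0.968, 0 to 4.14 CPM). In *otIs356* (14 libraries, 14701 genes) they were *perm-2* (0.987, 0 to 15.3 CPM), *ule-1* (0.958, 0.0940 to 9.10 CPM), *col-20* (0.956, 0.0888 to 15.4 CPM), *col-119* (0.955, 0.433 to 23.5 CPM) and *col-178* (0.942, 0.250 to 22.1 CPM). *perm-2* encodes an eggshell protein and the *col* genes encode cuticle collagens. *mppb-1*, unlike the rest, covered a narrow range. The median r was 0.828 for oocyte markers, 0.816 for sperm markers and 0.552 for adult cuticle markers in N2, against 0.02 for all genes, and 0.278 for oocyte markers and 0.858 for the 2 adult cuticle markers ranked in *otIs356*, against -0.02. Intestinal markers had a median r of -0.12 in N2 and 0.18 in *otIs356*.

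Regulators of vitellogenin transcription and genes of yolk secretion and uptake did not move as a block with the vitellogenins. The list held 18 genes, and its counts of calls stand beside 51.1% of all genes called either way in *pals-22* against wild type and 67.7% in *rrf-3* against wild type. Its sum was 464 to 553 CPM over N2 libraries and 339 to 496 CPM over *otIs356* libraries. In N2 *pals-22* against wild type, 5 of 18 were called higher, among them *elt-2*, an intestinal GATA factor (log2 fold change 1.22), *mab-10* (1.72) and *dsc-4*, the microsomal triglyceride transfer protein (0.44), and 5 lower, among them the insulin receptor *daf-2* (-0.98), *elt-7* (-0.94) and the developmental timing factor *lin-29* (-0.70). In *rrf-3* against wild type 2 were called higher (*rme-1* 1.62, *pqm-1* 0.26) and 10 lower, among them *lrp-2* (-1.29), *lin-29* (-1.26), *daf-2* (-1.20), *daf-16* (-0.78), *dsc-4* (-0.68), *sgk-1* (-0.53) and *rict-1* (-0.47). The median of the list was -0.40 there, against -0.02 over all genes.

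In the N2 double mutant against *rrf-3*, the comparison with the largest vitellogenin differences, only *elt-2* of the 18 was called (0.80, higher), and the median of the list was -0.04. Of all genes, 7.45% were called there, so the count is near that of the table. Against *pals-22* the double mutant had 1 higher (*rme-1*, 0.78) and 4 lower (*dsc-4* -0.94, *lrp-2* -0.92, *elt-2* -0.52, *sgk-1* -0.37), where 35.6% of all genes were called. In *otIs356*, where 16 of the list were tested, *pals-22* against wild type had 2 higher (*pqm-1* and *elt-2*, both 0.63) and 1 lower (*lin-29*, -1.20), the double mutant against *vsra-1* had 1 higher (*rme-8*, 0.83), and the other 2 comparisons had none. The share of all genes called was 10.9% in both comparisons with calls and 0.00598% in the other 2.

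Small RNAs antisense to the vitellogenin genes were rare. The sRNA tables hold reads antisense to a gene: the miRNA gene *mir-1* had 0.0824 and 0.0657 RPM (reads relative to the library total) in N2 and *otIs356* on average, and the gene T09B4.14 on the opposite strand had 172382 and 146024. In N2 the 6 genes together had 44, 15 and 9 reads in *pals-22*, against 11, 5 and 24 in wild type, which is 1.01, 0.976 and 0.784 RPM against 0.479, 0.392 and 1.14 RPM. The groups overlapped, and a single gene held 0 to 15 reads in a library. A count of 0 allows up to 3 counts, 0.0692 to 0.261 RPM in these libraries, for counting error only. None of the 6 had more than 5 RPM in any N2 library, the minimum for testing, so 0 of 6 were tested there, where 39.1% of the genes tested were called.

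In *otIs356* sRNA, *vit-6* had the most reads of the 6, 392 summed over the 14 libraries, against 127 for *vit-2*, 72 for *vit-5*, 55 for *vit-1*, 39 for *vit-4* and 31 for *vit-3*. *vit-6* had 3.60, 0.448 and 0.978 RPM in the double mutant and 2.05, 1.60 and 2.11 RPM in *pals-22*. It had 2.05, 1.19, 0.720 and 3.10 RPM in *vsra-1*, against 5.21, 1.84, 0.602 and 1.13 RPM in wild type. These counts were 8 to 71 reads per library, and each genotype overlapped with each other one. Per kb of transcript *vit-6* had 0.0887 to 1.03 RPM and *vit-2* 0 to 0.554 RPM in *otIs356*. Of the 22-base exon words of *vit-6*, 0.101% were also found elsewhere in the genome, against 86.9% for *vit-3* and 35.4% for *vit-2*. How the authors counted reads that fit more than 1 gene is not given in the sources used here, so the order of the members is uncertain.

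*vit-6*, through wild type replicate 1, was the only member tested in *otIs356* sRNA, and it was called in none of the comparisons. It passed the minimum of 5 RPM in that library alone (5.21 RPM). Its comparisons with wild type and the interaction are thus tilted toward a high wild type and serve as description only. Its log2 fold change was -0.21 ± 0.764 (SE) in *pals-22* against wild type (adjusted p = 0.893), where 26.3% of all genes were called. It was -0.44 ± 0.699 in *vsra-1* against wild type (adjusted p = 0.842, 4.96% of all genes called). The double mutant was at -0.37 ± 0.815 against *pals-22* (adjusted p = 0.871, 10% of all genes called) and at -0.15 ± 0.756 against *vsra-1* (adjusted p = 0.931, 22.6% called). The interaction was 0.07 (8.90% of all genes called). It was at an unadjusted p under 0.05 in none, against 31.6%, 15.7%, 18.4%, 29.2% and 17.7% of all genes in the same order, and DESeq2 made no call. A p that misses the threshold does not show that the groups are alike, and with standard errors of 0.699 to 0.815 sizeable differences either way could not have been seen.

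*vit-2* antisense sRNA had 2.73, 0.336 and 0.419 RPM in the *otIs356* double mutant and 1.19, 0.801 and 0.248 RPM in *pals-22*. It had 0, 0.317, 0.388 and 0.179 RPM in *vsra-1*, against 0.294, 0.344, 0.324 and 1.01 RPM in wild type. The highest library was double mutant replicate 1, with 41 reads, the replicate number that was also the highest in mRNA, though the labels do not say that both came from 1 RNA sample. The summed sRNA of the 6 genes was 8.87, 1.40 and 2.10 RPM in the double mutant, 5.54, 3.60 and 3.10 RPM in *pals-22* and 2.57, 2.54, 1.72 and 3.75 RPM in *vsra-1*, against 6.31, 2.47, 1.53 and 3.02 RPM in wild type.

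**Figure D5:**
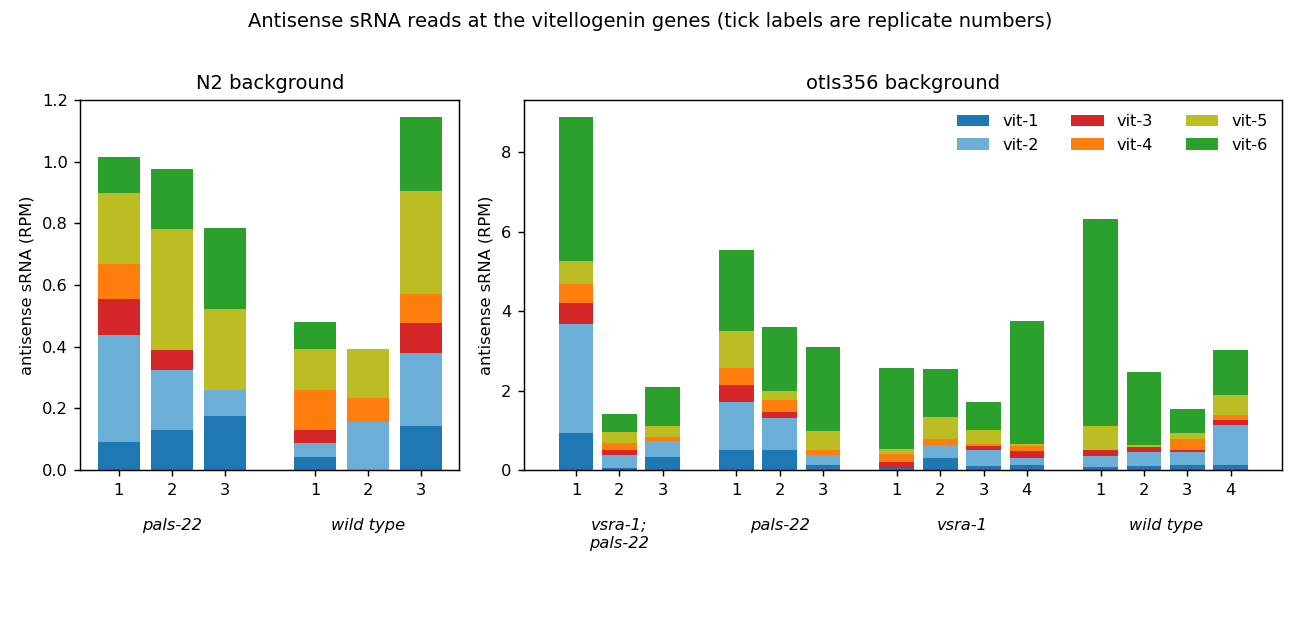
Small RNA antisense to the 6 vitellogenin genes in each sRNA library (RPM), stacked by gene. The N2 libraries hold 0.392 to 1.14 RPM in all, and the highest *otIs356* library is double mutant replicate 1 at 8.87 RPM.

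Of the yolk regulators, secretion and uptake genes, 9 of 18 were tested in N2 sRNA and 12 in *otIs356* sRNA. In *otIs356* *pals-22* against wild type, antisense sRNA of *elt-2* (log2 fold change 4.16) and *dsc-4* (3.65) was called higher, and that of *rme-6* (-0.54) and *daf-16* (-0.41) lower. Of all genes, 26.3% were called there. Neither *elt-2* nor *dsc-4* reached the minimum for testing in N2 sRNA. A gene enters the test through any 1 library over 5 RPM, which may be one where it is high. The calls of *elt-2* and *dsc-4* thus serve as description only. In N2 *pals-22* against wild type 1 was called higher and 2 lower, where 39.1% of all genes were called. *vsra-1* against wild type had none, the *otIs356* double mutant had 1 higher against *pals-22*, and 3 higher and 2 lower against *vsra-1*.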

How the data were processed

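The vitellogenin genes and the lists of yolk pathway and cell type marker genes were chosen with earlier results of these data known. The mRNA values that the authors deposited are estimated counts from kallisto, run within RNAlysis, summed and scaled per gene. The scaling is by length: 1 read of a 5 kb transcript is worth 0.147 to 0.197 units, so read numbers in the text were obtained by dividing by that worth and are approximate. The sRNA values deposited by the authors are featureCounts read counts per gene, from trimmed (CutAdapt) reads of 15 to 30 nt mapped to ce11 by ShortStack. No per-sample column was left without a sample. Libraries were grouped by their titles, whose replicate number differs from the library name for N2 wild-type and double-mutant mRNA.

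The estimated counts were rounded and each table was fitted whole in R 4.3.3 with edgeR 4.0.16 (quasi-likelihood test, TMM, 1 group per genotype, 2-sided, Benjamini-Hochberg over all genes tested, called at an adjusted p under 0.1). filterByExpr left 18986 N2 and 16724 *otIs356* mRNA genes. A minimum of 5 RPM in at least 1 library left 7243 N2 and 8042 *otIs356* sRNA genes. RPM use library totals. The script was tested on simulated data. DESeq2 1.42.0, library totals without TMM, no or a lower filter (1 RPM for sRNA), only the groups compared, a replicate block and leaving out each library were the alternatives. A fit on values turned back into reads was chosen after seeing the data. Python 3.11.15, numpy 2.4.6, pandas 2.3.3 and matplotlib 3.10.9 served the rest.

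The genes named are all 6 vitellogenins, those of the fixed lists (yolk pathway 18, intestine 10, body wall muscle 6, neurons 6, oocyte and maternal germline 18, sperm 16, adult epidermis and cuticle 6, early embryo 10) and the 5 most like the vitellogenin sum in each mRNA table. Body wall muscle markers summed to 2248 to 4874 CPM over N2 and 3341 to 8371 CPM over *otIs356* libraries, neuronal markers to 824 to 1424 and 940 to 1617 CPM, and early embryo markers to 2.29 to 17.6 and 3.66 to 20.6 CPM. Gene models and sequences are from the Ensembl WBcel235 reference.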

Additional observations from a re-analysis of the deposited data

Results flagged for a closer look

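Antisense sRNA of *vit-2* in *otIs356* wild type replicate 4 was 1.01 RPM, far from the other 3 wild-type libraries at 0.294, 0.324 and 0.344 RPM, with a gap of 0.929 of the group's range. The value stands for 8 reads, against 4, 7 and 6 reads in those libraries, and replicate 4 is the smallest *otIs356* sRNA library. It was the only such library in 28 groups checked, of which chance sets apart about 1 in 20. Only groups of 4 libraries were checked, those of *otIs356* wild type and *vsra-1*. The double mutants, *pals-22* and all N2 groups were too small for the rule and were not checked. The effect of *pals-22* on 2 mRNAs differed between *rrf-3* mutant and wild-type N2 animals by the interaction test (edgeR), with log2 differences of 4.63 for *vit-2* (adjusted p = 0.0763) and 3.49 for *vit-6* (adjusted p = 0.0868). The same test called 37.2% of all genes, and 21.5% in this direction, so the count of 2 of 6 does not set the vitellogenins apart. Neither was called with library totals in place of TMM (adjusted p = 0.101 and 0.121), and without double mutant replicate 2 the differences were 1.61 and 0.48.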

How the results depend on the processing

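The groups hold 2 to 4 libraries and single libraries decided most calls. Where 1 library was left in a group, it is assumed to vary like the other groups. Counts of called vitellogenin genes over the fits that left out 1 library were 0 to 2 for N2 *pals-22* against wild type, 0 to 4 for *rrf-3* against wild type, 0 to 1 for the N2 double mutant against *pals-22*, 0 to 3 against *rrf-3* and 0 to 3 for the N2 interaction. In the main fits of these comparisons 51.1%, 67.7%, 35.6%, 7.45% and 37.2% of all genes were called, in the same order. The share was not counted with 1 library left out or with a replicate block. DESeq2 gave 1 for N2 *pals-22* against wild type, where it called 24.7% of all genes higher. Library totals without TMM gave 0 for the N2 interaction and ended the call of *vit-5* in *rrf-3* against wild type (edgeR, adjusted p = 0.132). Fitting only the groups compared gave 5 for *otIs356* *pals-22* against wild type, where 12.6% of all genes were called lower. Same-numbered libraries deviated together in some pairs and not in others (r of -0.324 to 0.485), and the numbers were not taken to pair them. With a replicate block the counts were 1 for *rrf-3* against wild type, 0 for the N2 double mutant against *rrf-3*, 0 for the N2 interaction and 2 for *otIs356* *pals-22* against wild type. The block also turned *otIs356* double mutant against *vsra-1* to -0.47 (*vit-2*), -0.23 (*vit-3*), -0.51 (*vit-4*), -0.42 (*vit-5*) and -0.50 (*vit-6*), and *vit-6* sRNA to 0.22 in *pals-22* against wild type and to -0.41 in the interaction. Library totals turned *vit-3* to 0.022 in the N2 double mutant against *pals-22*. The cause of these changes was not tested. Values turned back into reads changed no count.

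Log2 fold changes that changed sign when 1 library was left out had these ranges. For N2 *pals-22* against wild type it was -0.32 to 2.10 (*vit-3*). For *rrf-3* against wild type they were -2.03 to 2.57 (*vit-1*), -1.48 to 0.94 (*vit-3*) and -3.46 to 1.20 (*vit-4*). For the N2 double mutant against *pals-22* they were -2.18 to 1.89 (*vit-1*), -2.05 to 1.85 (*vit-2*), -1.35 to 0.57 (*vit-3*), -2.35 to 0.91 (*vit-4*), -1.68 to 1.61 (*vit-5*) and -2.33 to 1.56 (*vit-6*). Against *rrf-3* it was -0.20 to 1.73 (*vit-3*). For the N2 interaction they were -1.90 to 2.95 (*vit-1*), -1.04 to 1.38 (*vit-3*) and -1.16 to 3.50 (*vit-4*). For the *otIs356* double mutant against *vsra-1* they were -0.85 to 1.13 (*vit-1*), -2.46 to 1.22 (*vit-2*), -1.68 to 0.97 (*vit-3*), -2.62 to 1.27 (*vit-4*), -2.42 to 1.14 (*vit-5*) and -2.49 to 1.14 (*vit-6*). For the *otIs356* interaction they were -0.15 to 1.83 (*vit-1*), -0.53 to 3.13 (*vit-2*), -0.29 to 2.36 (*vit-3*), -0.50 to 3.49 (*vit-4*), -0.73 to 2.82 (*vit-5*) and -0.43 to 3.20 (*vit-6*). For *vit-6* sRNA they were -1.47 to 0.069 in the double mutant against *pals-22*, -1.24 to 0.30 against *vsra-1* and -1.04 to 0.50 in the interaction.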

Other observations

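Of the 100 genes most like the vitellogenin sum in each mRNA table, 29 were in both lists, 29.0% of either. Among them were the yolk receptor gene *rme-2*, the eggshell genes *perm-2*, *perm-4* and *cpg-3*, *ule-1*, *ule-3*, *ule-4*, *ule-5* and *spex-3*, and 10 collagen genes, *col-19* included. In both tables the double-mutant library with the most vitellogenin was the highest for each of the 5 genes named as most alike. They were picked by r over the same libraries, so this follows largely from the choice. Early embryo markers moved otherwise: in N2 they summed to 9.08 to 9.39 CPM in the double mutant, 2.29 to 3.03 CPM in *pals-22* and 11.8 to 17.6 CPM in *rrf-3*, against 3.81 to 4.44 CPM in wild type, and 7 of 10 were called higher and 1 lower in *rrf-3*. In *rrf-3* against wild type 67.7% of all genes were called either way.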
